A study of Nicotiana tabacum with 16 samples.

Results

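Along the gene identifiers of tobacco (Nicotiana tabacum), 2 stretches of neighbouring gene models differed from K326 in only 1 root library each. The first lay in ID group 3 between serial numbers 6500 and 10000 and was higher in myc2a replicate 4. The other lay in ID group 7 between 30 and 3070 and was lower in nic1 nic2 replicate 3. The stretches held 351 and 305 gene models, 656 of the 63697 in the deposited count table. The members were chosen by their counts in these same libraries relative to K326, which set the ends, the library and the direction of each stretch, so the shifts themselves are given as descriptions without a test. Levels are in CPM, counts set to a common library size after scaling by trimmed means (TMM). Of the members, 177 in ID group 3 and 160 in ID group 7 averaged at least 1 CPM in K326, a minimum that does not use the shifted libraries. The remaining 174 and 145 members lay under it, and 92 and 70 of them had no counts in any library.

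Tobacco is an allotetraploid with a set of chromosomes from each of a pair of parent species, so many genes occur as similar copies from both. Nicotine is made in roots, and its synthesis is induced by jasmonate, a hormone of wounding. The Nic1 and Nic2 loci set how much is made; clustered ERF regulators are found at Nic2, while Myc2a encodes a bHLH regulator that acts in the jasmonate response. Nearly isogenic lines share most of the genome of a common parent, and the segments where they still differ are not fully known from the name of a line. The identifiers carry no gene names, so functions and sequences of the members were not used here, and the labelled root tissue was not checked against marker genes. Serial numbers give the order in the table, and neither labels nor files say whether it is that of the chromosomes.

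The groups were the flue-cured cultivar K326 (4 libraries) and lines in its background with recessive alleles at Nic1 and Nic2 (nic1 nic2, 3 libraries), at Myc2a (myc2a, 5) or at all of these loci (nic1 nic2 myc2a, 4). All plants were grown in pots in a greenhouse and topped, that is, lost the shoot apex, around flowering, and roots were taken 18 h later. The study asked how root expression differed between these genotypes. Whether each library was a separate plant is not stated, so the spread behind each p-value may be technical.

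Total counts per library were 32167776 to 40858135, with 71836276 in K326 replicate 2. The library nic1 nic2 replicate 3 stood apart before any stretch was looked at. It had 41283 detected gene models, against 42797 to 45675 in the others, and a mean Spearman correlation of 0.946 with its own group. Over 37245 gene models of at least 1 CPM in K326, the distance between the quartiles of its log2 ratios to K326 was 0.86, against 0.39 in myc2a replicate 4 and 0.62 in myc2a replicate 5. Every value of the ID group 7 stretch rests on this 1 library, and no result on its shift can be given without it. The part that the wide spread of this library has in those values was not tested.

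In the ID group 3 stretch, the median member was at 152% of its K326 mean in myc2a replicate 4. Percent of K326 is the median over members of (CPM + 0.5) divided by (K326 mean + 0.5). The other myc2a libraries, replicates 1, 2, 3 and 5, were at 105, 98.9, 99.9 and 107%. The K326 libraries were at 99.0, 99.2, 101.7 and 97.3%. The 15 libraries other than replicate 4 ran from 97.3 to 108% with a mean of 102 ± 3.06% (SD, n = 15), all below replicate 4. The nic1 nic2 libraries were at 101 to 103% and the nic1 nic2 myc2a libraries at 100.5 to 108%. Of the 177 members, 162 were above the K326 mean in replicate 4, which is 91.5%, against 44.6 to 56.5% in the other myc2a libraries.

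**Figure D1:**
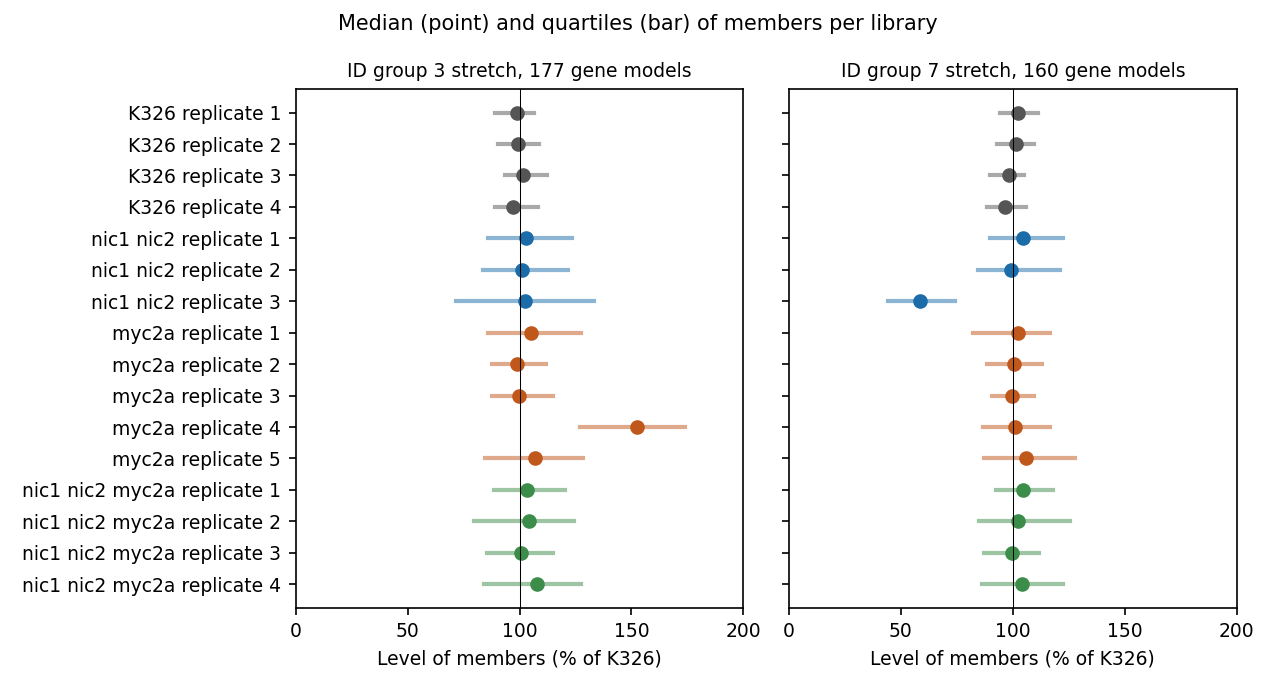
Level of the members in each library as percent of the K326 mean, for the stretches of ID group 3 (177 gene models) and ID group 7 (160 gene models); points are medians over members and bars run from the lower to the upper quartile. In ID group 3 only myc2a replicate 4 (152%) and in ID group 7 only nic1 nic2 replicate 3 (58.6%) lie apart from the other 15 libraries.

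Most members shared a similar ratio. The quartiles in myc2a replicate 4 were 127 and 174% of K326, and 23 of 177 members were over 2-fold above K326. The distance between quartiles was 0.45 on the log2 scale, against 0.38 for the 1919 gene models of ID group 3 outside the stretch in the same library. Thus the members had little more scatter than the rest of the ID group, and their common direction was set by the choice of members. In all, 127 members (71.8%) were above every K326 library and every other myc2a library; over all 37245 gene models this share was 7.83%, and since the rule used this contrast nothing is read from the difference. For 101 members replicate 4 was the highest of all 16 libraries (57.1%, against 2.84% over all gene models).

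The shift began and ended within a few gene models. The ends were set from the counts of this same library, so nothing is read from the steps there. The 10 gene models before the stretch with at least 1 CPM in K326 had a median of 86.4% in myc2a replicate 4, and 8 of them were below K326. The first 10 members had a median of 152%, and all 10 were above. At the far end the last 10 members had a median of 177% and the next 10 gene models 104%, with 5 above and 5 below. Just outside, Ntab03g006490-1.1 was at 66.6% and Ntab03g010020-1.1 at 109%. Just inside, Ntab03g006500-1.1 was at 130% and Ntab03g010000-1.1 at 275%. Between these ends the level did not drift back to K326: in 7 bins of 500 serial numbers with 17 to 32 gene models each, the median ran from 129% in the bin starting at 8500 to 159% in that starting at 9000. In 64 bins of ID group 3 outside the stretch it ran from 87.1 to 108%. In the 7 bins inside, the other libraries ran from 88.1 to 127.5%. The highest of these was myc2a replicate 1 in the bin starting at 6500, where myc2a replicate 4 was at 157.7%.

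**Figure D2:**
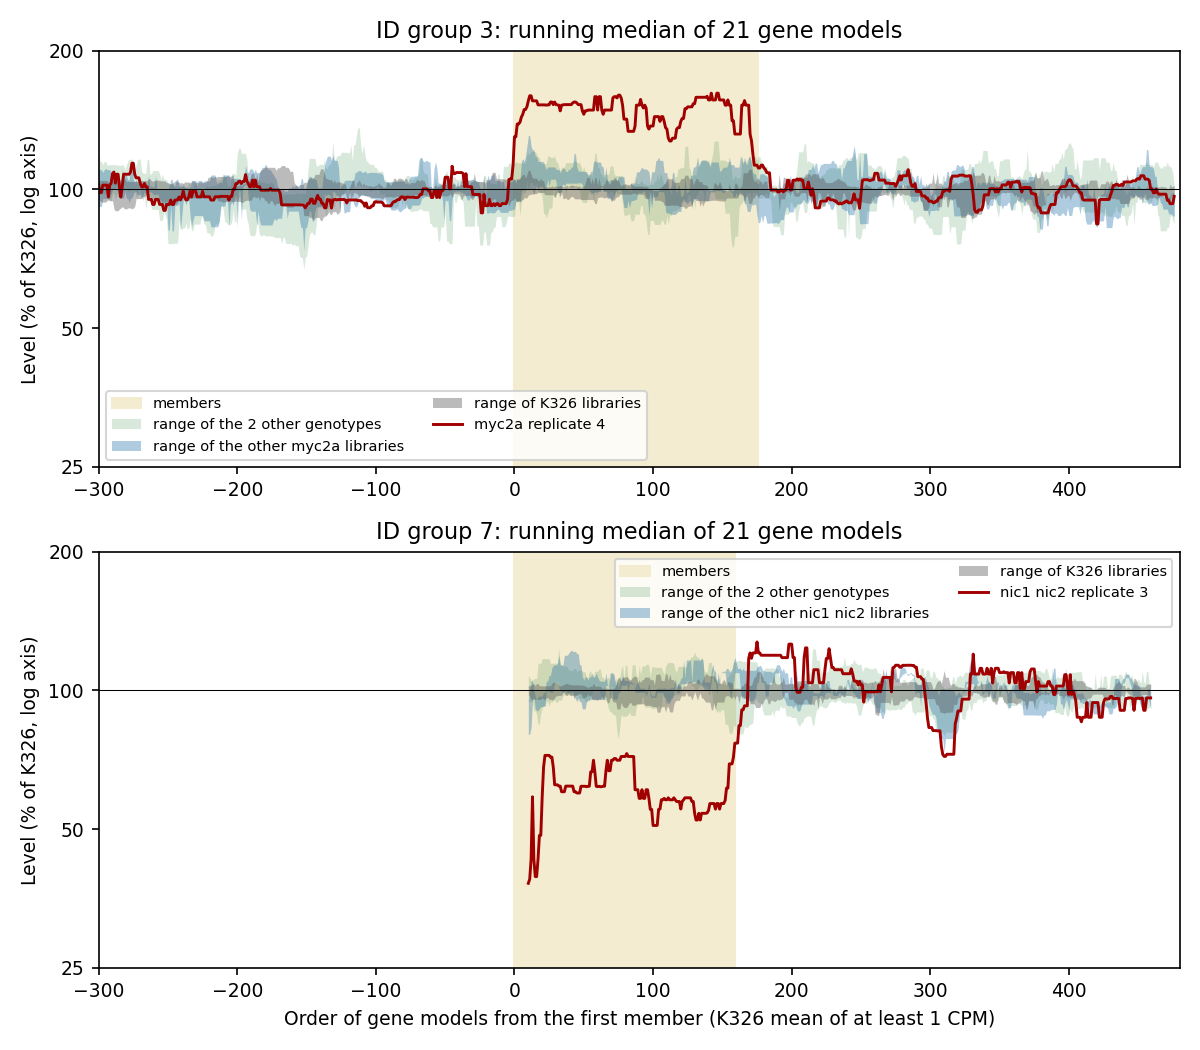
Running median of 21 gene models (percent of K326, log axis) by their order from the first member, for the library with the shift (red line) and the ranges of the other libraries (bands); members lie in the shaded block. In ID group 3 the line of myc2a replicate 4 stays between 127 and 162% for windows inside the stretch, and in ID group 7 that of nic1 nic2 replicate 3 between 38.1 and 72.9%, while windows outside the stretches reach down to 84.2 and 71.9% and up to 114 and 127%. Inside the stretches the other libraries reach up to 131% in ID group 3 and down to 78.4% in ID group 7.

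Elsewhere in myc2a replicate 4, no window of 51 gene models outside the stretch reached more than 113% of K326 (ID group 19), whereas windows within the stretch ran from 136 to 157%. The lowest windows of this library, down to 47.1%, lay in ID group 11, in a stretch that is at 52.6 to 54.4% in myc2a replicates 2 to 5. Leaving out both of these stretches and those of ID groups 7 and 18, its windows did not go below 85.5%. At this window size the library therefore showed 1 raised and 1 lowered stretch, and only the lowered one was shared with other myc2a libraries. Shorter runs would not be seen in such windows.

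By expression level, the median percent of K326 in myc2a replicate 4 was 146% for 51 members at 1 to 4 CPM in K326, 143% for 66 members at 4 to 16 CPM and 154% for 48 members at 16 to 64 CPM. It was 186% for 12 members at 64 CPM or more. Gene models outside the stretch were at 97.9 to 99.2% in the same bands of this library, so outside the stretch the bands of this library differed by little. The scatter was smallest at 16 to 64 CPM, where the quartiles were 140 and 169%, and 47 of 48 members were above K326. In the highest band the quartiles were 151 and 240%, and all 12 were above. The other libraries stayed between 89.9 and 117% in every band.

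**Figure D3:**
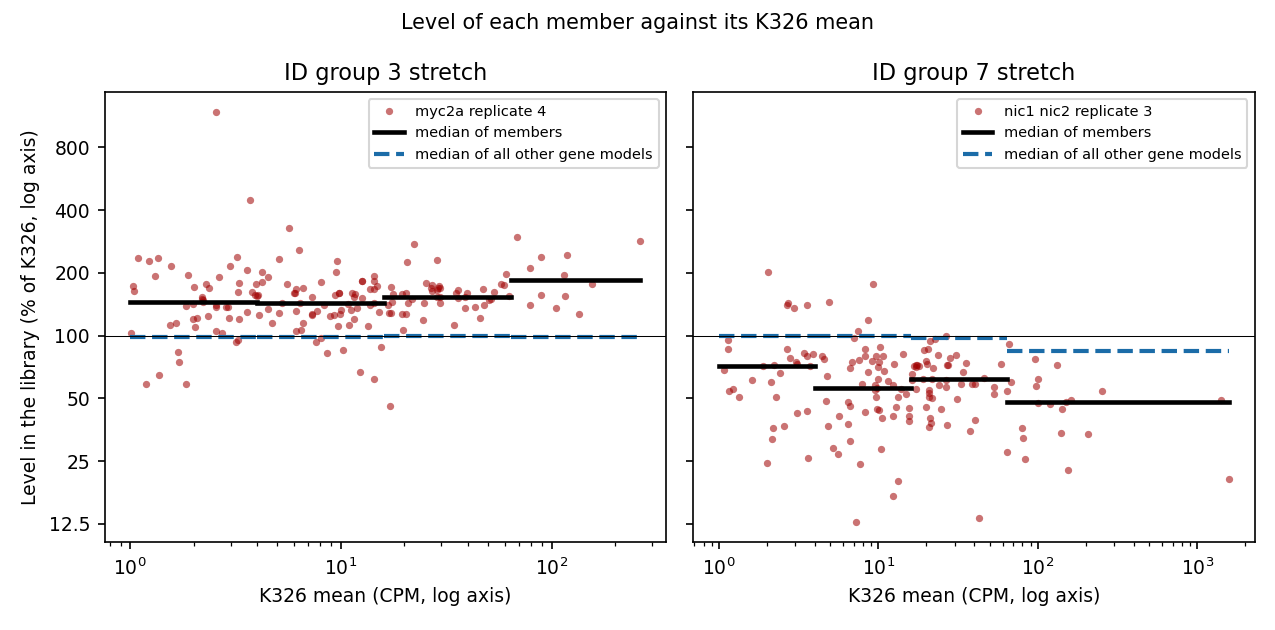
Level of each member in the library with the shift (percent of K326, log axis) against its K326 mean (CPM, log axis); black lines are medians of members and dashed lines those of all gene models outside the stretch, in bands that begin at 1, 4, 16 and 64 CPM. The black lines lie at 143 to 186% for ID group 3 and at 47.9 to 71.4% for ID group 7.

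Among the 5 members highest in K326, Ntab03g008490-1.1 was at 118.6, 115, 113 and 114 CPM in K326 replicates 1 to 4. In myc2a it was at 125, 116, 121, 179 and 101 CPM in replicates 1 to 5. Only replicate 4 left the range of the 15 other libraries (101 to 135 CPM), at 155% of K326. Ntab03g006510-1.1, the 2nd member by order, was at 92.2 to 145 CPM in K326 and at 172, 149, 127, 289 and 143 CPM in myc2a replicates 1 to 5, so replicate 4 was again alone. Ntab03g009260-1.1 was at 130 to 177 CPM in K326 and at 201, 176, 187, 275 and 151 CPM in myc2a. Near the far end, Ntab03g009980-1.1 was at 222 CPM in replicate 4 and at 98.0 to 159.9 CPM in the other 15 libraries.

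Other members of the highest expression were not high in replicate 4 alone. Ntab03g007710-1.1 averaged 264 ± 42.7 CPM over K326 (SD, n = 4) and reached 749 CPM in myc2a replicate 4, but also at 778 CPM in myc2a replicate 5, with 157 to 324 CPM in replicates 1 to 3 and 459 to 567 CPM in nic1 nic2. Its neighbour Ntab03g007720-1.1 had the same pattern, with 203 CPM in replicate 4 and 199.7 CPM in replicate 5 against 32.9 to 91.4 CPM in the other myc2a libraries. These neighbours had 2 of the 3 largest ratios among members of at least 4 CPM in K326 (284 and 296.5%), and they varied between libraries apart from the stretch. Whether they share reads as similar copies was not analysed here. Ntab03g008930-1.1, at 172 CPM in replicate 4, lay below myc2a replicate 1 (177 CPM). The largest ratio among members of at least 4 CPM was in Ntab03g006640-1.1, at 327% of K326 with 19.6 CPM, and nic1 nic2 myc2a replicate 2 had 19.0 CPM.

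Some members did not take part in the shift. In all, 15 of the 177 were below the K326 mean in myc2a replicate 4. Ntab03g009850-1.1 went furthest against it, at 7.58 CPM or 45.7% of K326, and it varied from 5.08 to 36.4 CPM over the other 15 libraries. Ntab03g008900-1.1 (62.1%) and Ntab03g009830-1.1 (66.7%) also varied widely elsewhere, from 8.26 to 39.5 CPM and from 1.90 to 15.7 CPM. At the other extreme, 2 members were over 4-fold above K326, named here after their values were seen. Ntab03g007200-1.1 was at 35.5 CPM against 2.56 ± 0.747 in K326 (SD, n = 4), with up to 22.9 CPM in the other libraries. Ntab03g007690-1.1 was at 18.2 CPM against 3.69 ± 1.35, with 29.0 CPM in nic1 nic2 myc2a replicate 2.

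The 174 members under 1 CPM in K326 summed to 29.9 CPM in myc2a replicate 4, against 16.7 to 21.8 CPM in K326 and 15.9 to 16.6 CPM in the other myc2a libraries. Their sum was thus highest in the same library. Of 71 with counts in K326 or replicate 4, 37 were above the K326 mean. No member had counts in replicate 4 alone, and none of the 177 lacked counts there.

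In the ID group 7 stretch, the median member was at 58.6% of its K326 mean in nic1 nic2 replicate 3. The other nic1 nic2 libraries were at 104.5% (replicate 1) and 99.0% (replicate 2). The K326 libraries were at 102, 101, 98.4 and 96.5%. The 15 libraries other than nic1 nic2 replicate 3 ranged from 96.5 to 106% (mean 101 ± 2.56%, SD, n = 15), so this library lay far below their range. Of the 160 members, 150 (93.8%) were below the K326 mean in replicate 3, against 40.6 and 51.9% in replicates 1 and 2. That 129 members (80.6%) were below every K326 and every other nic1 nic2 library has to be read against 30.9% over all 37245 gene models, since this library was low in many places; the rule used the same contrast. It was the lowest of all 16 libraries for 107 members (66.9%, against 20.6% over all gene models).

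The members of ID group 7 were less alike than those of ID group 3. Their quartiles in nic1 nic2 replicate 3 were 44.4 and 74.4% of K326, a distance of 0.74 on the log2 scale. Over the 1769 gene models of ID group 7 outside the stretch that distance was 0.88, so the scatter within the stretch was no larger than in the rest of this library. In nic1 nic2 replicates 1 and 2 the distances over members were 0.45 and 0.52. Of the 160 members, 54 were under 50% of K326 and 8 under 25%.

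**Figure D4:**
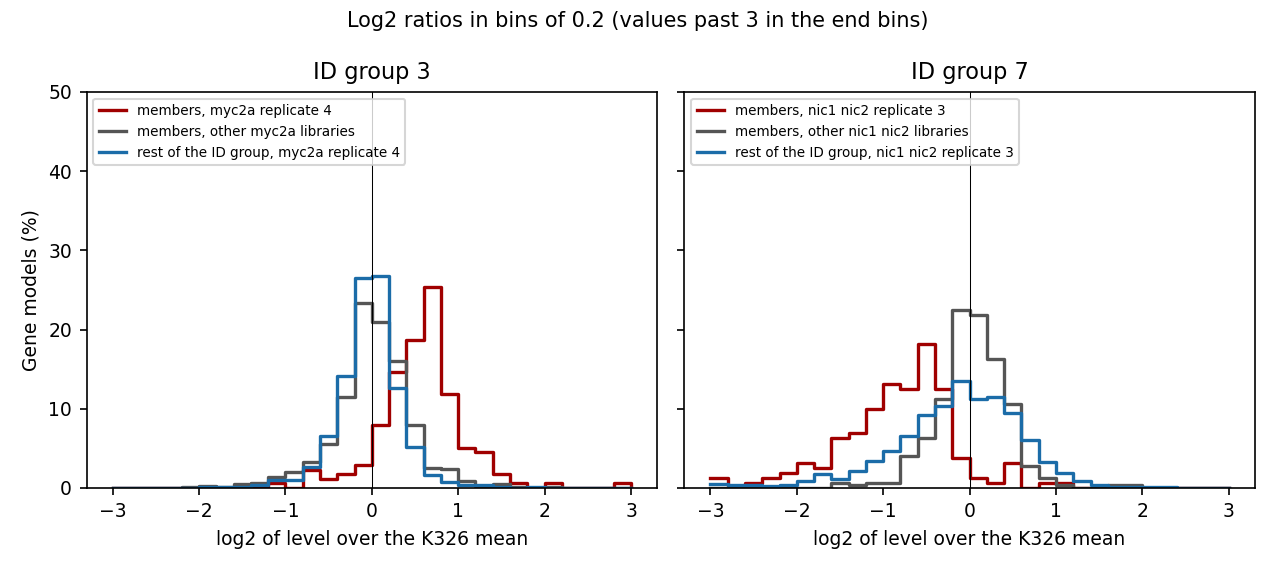
Distribution of log2 ratios to the K326 mean in bins of 0.2, as percent of gene models, for members in the library with the shift, members in the other libraries of the genotype, and the rest of the ID group in the library with the shift. Members of ID group 3 form a peak to the right of 0 in myc2a replicate 4, where 162 of 177 are above 0, and those of ID group 7 a broader one to the left in nic1 nic2 replicate 3, where 150 of 160 are below.

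This stretch lay at the start of its ID group: only 2 gene models had lower serial numbers, and neither reached 1 CPM in K326. The reduction was deepest at that end. The first 10 members had a median of 31.7% in nic1 nic2 replicate 3, and the 20 members below serial number 500 had 37.7%. In the following 5 bins of 500 serial numbers the medians were 62.4, 70.6, 58.3, 57.4 and 56.8%, so the level stayed low but not even across the stretch. The last 10 members had a median of 66.3%, with all 10 below K326. The next 10 gene models had 105%, with 5 above and 5 below, and values from 22.3 to 257%. Below serial number 500, nic1 nic2 replicate 2 was also lower than K326, at 79.9%. Replicate 1 was at 97.7% there and the K326 libraries at 97.6 to 101.9%.

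The upper end was likewise set from these data, so nothing is read from the step there or from its sharpness. Ntab07g003070-1.1, the last member, was at 71.7% of K326, and the next gene model, Ntab07g003080-1.1, at 131%. Ntab07g003090-1.1 was at 35.3%, with 15.0 CPM against 43.5 ± 2.64 CPM in K326 (SD, n = 4), although it lies outside the stretch. It was also low in myc2a replicate 5 (17.5 CPM). The 100 gene models after the stretch had a median of 111% in nic1 nic2 replicate 3, above the 94.9% of all gene models of ID group 7 outside the stretch.

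Windows of 51 gene models inside the stretch ran from 55.2 to 67.3% of K326 in nic1 nic2 replicate 3. Outside the 4 stretches, those here and in ID groups 11 and 18, the lowest window of this library was at 72.4% (ID group 23) and the highest at 133% (ID group 2). In shorter windows of 21 gene models the ranges overlapped, with 38.1 to 72.9% inside the stretch and values down to 71.9% in the gene models after it. For nic1 nic2 replicates 1 and 2 the lowest windows of 51 gene models outside the 4 stretches were at 80.2 and 80.1%. So the margin between the stretch and other low places was narrower in this library than for the raised stretch in myc2a replicate 4. Over the 25 ID groups without both stretches, the median of nic1 nic2 replicate 3 lay between 89.2% (ID group 18) and 99.5% (ID group 14).

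By expression level, the median in nic1 nic2 replicate 3 was 71.4% for 32 members at 1 to 4 CPM in K326 and 56.2% for 57 members at 4 to 16 CPM. It was 61.8% for 49 members at 16 to 64 CPM and 47.9% for 22 members at 64 CPM or more. Gene models elsewhere in the library were at 99.2, 99.2, 97.0 and 84.0% in these bands, so the highest band was low in this library as a whole. Relative to these, the members were at 72.0, 56.6, 63.7 and 57.0%. All 22 members of the highest band and 48 of 49 in the band below were under K326. In the highest band the other nic1 nic2 libraries were also low, at 86.0 and 92.0%, against 98.4 to 103% in the K326 libraries. That band was thus not low in replicate 3 alone, though replicate 3 was the lowest. In the lower bands the other nic1 nic2 libraries were at 97.2 to 107.9%.

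The most abundant member, Ntab07g000240-1.1, was at 1901, 1833, 1438 and 1160 CPM in K326 replicates 1 to 4. In nic1 nic2 it was at 1823, 1244 and 325 CPM in replicates 1 to 3, which put replicate 3 at 20.6% of K326. All 15 other libraries were above that value, the lowest at 614 CPM in myc2a replicate 5. Ntab07g001540-1.1 was at 1223 to 1672 CPM in K326 and at 912, 957 and 686 CPM in nic1 nic2. For this member replicates 1 and 2 were also below K326, and nic1 nic2 myc2a was at 729 to 999 CPM, so replicate 3 (49.1% of K326) was lowest but close to other libraries that carry nic1 nic2.

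Other abundant members separated replicate 3 clearly. Ntab07g000890-1.1 had 304, 305 and 137 CPM in replicates 1 to 3 of nic1 nic2 against 253 ± 7.39 CPM in K326 (SD, n = 4). Ntab07g002750-1.1 was at 181, 174 and 68.5 CPM against 205 ± 23.1 in K326, and Ntab07g002410-1.1 at 139.6, 141 and 79.0 CPM against 162 ± 16.5. In each of these, replicate 3 was the lowest of the 16 libraries. The same held for Ntab07g000060-1.1 near the start, at 25.6 CPM against 54.3 to 89.9 CPM in the others, and for Ntab07g002990-1.1 near the end, at 10.7 CPM against 13.8 to 31.0 CPM.

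The lowest ratios among members of at least 4 CPM in K326 were in Ntab07g002400-1.1, Ntab07g002740-1.1 and Ntab07g001820-1.1. Ntab07g002400-1.1 had 7.50, 8.59 and 0.486 CPM in replicates 1 to 3 of nic1 nic2 and 5.39 to 9.80 CPM in all 13 libraries of the other genotypes. Ntab07g002740-1.1 was at 27.7, 28.4 and 5.29 CPM, and its neighbour Ntab07g002750-1.1 is the member named above. Ntab07g001820-1.1 was at 11.4, 12.9 and 1.69 CPM. These members were at 12.8, 13.4 and 17.0% of K326, well below the median member.

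Against the direction stood 10 of the 160 members. Ntab07g001700-1.1 was at 16.6 CPM in replicate 3, the highest of all 16 libraries, and at 6.04 to 12.7 CPM in the others (177% of K326). Ntab07g001680-1.1 was at 7.29 CPM (145%) and Ntab07g002220-1.1 at 10.3 CPM (118%), both inside the range of other libraries. The 145 members under 1 CPM in K326 summed to 20.8 CPM in nic1 nic2 replicate 3, against 14.3 to 25.7 CPM in K326 and 31.8 and 26.8 CPM in replicates 1 and 2, so their sum did not leave the range of K326.

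Each stretch was near K326 in the library that carried the other shift: ID group 7 was at 101% in myc2a replicate 4, and ID group 3 at 103% in nic1 nic2 replicate 3. Both libraries also had a lowered stretch shared with other libraries of their genotype. In ID group 11, myc2a replicate 4 was at 53.0%, close to replicates 2, 3 and 5 (52.6, 52.7 and 54.4%) and unlike replicate 1 (97.1%). In ID group 18, nic1 nic2 replicate 3 was at 50.6%, close to replicates 1 and 2 (53.4 and 52.9%). The ends of those stretches were also set from these data, and no test of the differences between stretches was made. The reduction of the ID group 7 stretch was thus smaller at its median than those in ID groups 11 and 18. Unlike them, it was not seen over the stretch as a whole in another library of its genotype. The order rests on medians. In nic1 nic2 replicate 3 the summed CPM of the ID group 7 stretch was 3282, against 6678 to 7792 in K326. That of the ID group 18 stretch was 2842, against 6019 to 6458.

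Genotypes were compared at the members without the libraries that defined the stretches, in 14 libraries, with edgeR's quasi-likelihood test over 43525 gene models and p-values adjusted by Benjamini-Hochberg over all of them. No member was called at an adjusted p under 0.05 in any of these 3 comparisons with K326. Of the members, 217 in ID group 3 and 204 in ID group 7 passed the filter on low counts. Over all gene models 0.0643% were called for myc2a, 0.338% for nic1 nic2 and 0.26% for nic1 nic2 myc2a. These shares turned on single libraries: without myc2a replicate 1 they were 0.939% for myc2a and 1.17% for nic1 nic2 myc2a, and without nic1 nic2 replicate 1 the share for nic1 nic2 was 0.0649%. Beside these counts of 0, DESeq2 called 0 members for myc2a, 9 for nic1 nic2 and 13 for nic1 nic2 myc2a, with 0.382, 1.5 and 3.43% called over all gene models. Leaving out 1 library at a time gave 0 members for myc2a in each of 14 fits, but 2 for nic1 nic2 without nic1 nic2 myc2a replicate 2 or 3, where 0.44 and 0.345% of all gene models were called. For nic1 nic2 myc2a it gave 4 without myc2a replicate 1, 2 without myc2a replicate 5 and 3 without nic1 nic2 myc2a replicate 3, where the shares over all gene models were 1.17, 0.623 and 0.986%.

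At an unadjusted edgeR p under 0.05 there were 13 members of ID group 3 (5.99%) and 9 of ID group 7 (4.41%) for myc2a without replicate 4, where the share over all gene models was 5.15%. For nic1 nic2 without replicate 3 there were 29 (13.4%) and 26 (12.8%), against 11.5%. For nic1 nic2 myc2a there were 36 (16.6%) and 25 (12.3%), against 15.6%. These shares lay near those of all gene models. In ID group 3 the median log2 difference of myc2a without replicate 4 from K326 was 0.06 over 217 members, against 8e-04 over all gene models. In ID group 7 the median of nic1 nic2 without replicate 3 was 0.03 over 204 members, against -0.03 over all. A p that misses the threshold does not show that genotypes had equal levels here.

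Named next are the members of lowest edgeR adjusted p per stretch in the nic1 nic2 and nic1 nic2 myc2a comparisons. Ntab07g001670-1.1 had a log2 difference of 0.51 ± 0.11 between nic1 nic2 myc2a and K326 (SE from edgeR; edgeR adjusted p = 0.0623; DESeq2 adjusted p = 0.00136). Ntab07g002630-1.1 differed by 0.74 ± 0.16 between nic1 nic2 and K326 (edgeR adjusted p = 0.0708; DESeq2 adjusted p = 0.0028). Ntab03g007200-1.1 was the member with the largest ratio in myc2a replicate 4. In nic1 nic2 it differed from K326 by 2.46 ± 0.54 (edgeR adjusted p = 0.0806, DESeq2 adjusted p = 0.00148). In nic1 nic2 myc2a it differed by 2.1 ± 0.47 (edgeR adjusted p = 0.0772, DESeq2 adjusted p = 0.000791). Its level was above that of every K326 library in all libraries of the other genotypes except nic1 nic2 replicate 3 and nic1 nic2 myc2a replicate 3.

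With all 16 libraries in the fit, the values include the libraries by which the members were chosen, so they are given as a description from which nothing is read. The median log2 difference of myc2a from K326 over the ID group 3 members was then 0.18, with 71.8% of 213 members positive, against 58.1% of 217 without replicate 4. That of nic1 nic2 over the ID group 7 members was -0.15, with 35.8% of 201 positive, against 52.5% of 204 without replicate 3. In this fit edgeR called 0 members of ID group 3 for myc2a and 1 of ID group 7 for nic1 nic2, with 0.17 and 0.918% called over all gene models. The called member was Ntab07g000030-1.1, the first of the stretch, at a log2 difference of -1.75 from K326. Its levels in the 3 nic1 nic2 libraries were 2.15, 1.70 and 1.14 CPM, against 2.78, 6.42, 6.37 and 6.75 CPM in K326. Without replicate 3 its edgeR adjusted p was 0.218, while its DESeq2 adjusted p was 0.0316 at a log2 difference of -1.53.

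Without the library that defined each stretch, the median SD of log2 levels over the other 4 myc2a libraries was 0.30 at members of ID group 3 and 0.28 at other gene models. Over the other 2 nic1 nic2 libraries it was 0.15 at members of ID group 7 and 0.16 elsewhere. Including the shifted library raised the SD at the members to 0.38 and 0.52, which the choice of members favoured. Elsewhere it became 0.27 with myc2a replicate 4 and 0.29 with nic1 nic2 replicate 3. The rise with nic1 nic2 replicate 3 was thus not confined to the members. SDs over different numbers of libraries, here 2 and 3, are not directly comparable, so nothing is read from the size of this rise. The K326 libraries had a median SD of 0.22 at members of ID group 3 and 0.18 at members of ID group 7, against 0.20 elsewhere.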

How the data were processed

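Root RNA-seq libraries were prepared with a strand-marking kit, per the labels' protocols. The submitters' processing notes name FastQC, HISAT2 2.1.0, SAMtools and bedtools. The genome build, annotation and counting settings are not given in the sources used here, so reads shared between similar copies could not be assessed. The deposited table held raw whole-number counts for 63697 gene models in 16 libraries, with totals of 32167776 to 71836276. None of the identifiers matched the gene table at hand.

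Members, lists and tests were chosen with earlier results of these data known. Counts were scaled by TMM to CPM. Levels used a pseudocount of 0.5 CPM and a K326 mean of at least 1 CPM. Genotypes were compared in 14 libraries with edgeR 4.0.16 (R 4.3.3; quasi-likelihood test, filter on low counts, Benjamini-Hochberg adjustment over all gene models, threshold 0.05). The fit was tested on simulated data. Alternatives were DESeq2 1.42.0, library size only, no filter, a replicate block, all 16 libraries and each library left out.

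Gene models were named by rule: the 5 highest in K326 per stretch, the 3 most extreme ratios in each direction at 4 CPM or more, and those at and just outside the ends. Members called by edgeR in a comparison of 14 libraries, or with counts only in or only outside the shifted library, were to be named too, and there were none. Members called only under an alternative were not named by this rule.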

Additional observations from a re-analysis of the deposited data

Results flagged for a closer look

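A library was flagged where it lay far from the others of its genotype (Dixon's criterion, groups of 4 or 5 libraries). The genotype whose library defined a stretch was left out for that stretch and its named gene models, since the choice of the stretch used those values, and the 3 nic1 nic2 libraries were not tested. Over 34 named gene models and both stretches, 90 groups were tested and 6 were flagged; chance flags about 1 in 20 groups.

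All flags were of ID group 7, the only stretch for which the myc2a libraries were tested, so nothing is read from this. In myc2a replicate 4, the member Ntab07g000890-1.1 was flagged high at 297.5 CPM, against 239 to 251 CPM in the other myc2a libraries. In myc2a replicate 5, Ntab07g002220-1.1 was flagged high at 11.19 CPM. Ntab07g000060-1.1 (54.28 CPM) and Ntab07g003090-1.1 (17.51 CPM), the latter just outside the stretch, were flagged low there. In K326, Ntab07g002410-1.1 was flagged high in replicate 4 at 186.6 CPM and Ntab07g000030-1.1 low in replicate 1 at 2.784 CPM, against 6.37 to 6.75 CPM in replicates 2 to 4.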

How the results depend on the processing

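The ID group 3 stretch in myc2a replicate 4 (152.4% of K326) stayed above K326 under the settings tried. It moved to 142.1% with a pseudocount of 2 CPM, 139.0% with any K326 count, 145.3% against the other myc2a libraries, 146.6% against the median of the other 15 libraries and 175.0% as a ratio of summed counts. Leaving out each K326 replicate gave 148.2 to 153.3%. The ID group 7 stretch in nic1 nic2 replicate 3 (58.62%) moved to 64.77% with library size only, 63.49% with a pseudocount of 2 CPM, 66.55% with any K326 count, 54.69% against the other nic1 nic2 libraries and 45.15% as summed counts, with 57.98 to 59.93% on leaving out K326 replicates. Centring on gene models of like level, chosen after seeing the data, gave 153.7 and 60.67%.

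Calls over all gene models were 28 for myc2a, 147 for nic1 nic2 and 113 for nic1 nic2 myc2a. DESeq2 gave 180, 635 and 1483, and all 16 libraries gave 73, 395 and 127. Library size only gave 173 for nic1 nic2 myc2a, of which 106 were higher and 67 lower, against 42 and 71. Leaving out 1 library gave 19 to 408 (408 without myc2a replicate 1), 29 to 218 (29 and 33 without nic1 nic2 replicate 1 or 2) and 61 to 507 (507 without myc2a replicate 1, 429 without nic1 nic2 myc2a replicate 3). A lone nic1 nic2 library was assumed to vary like the other groups. The cause was not tested.

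Members called stayed at 0 for myc2a. For nic1 nic2 library size only and all 16 libraries gave 1 each, DESeq2 gave 9, and leaving out libraries 0 to 2. For nic1 nic2 myc2a library size only gave 2, DESeq2 gave 13, and leaving out libraries 0 to 4. Replicate numbers did not pair the samples: deviations of 21 same-numbered pairs correlated at -0.21 to 0.18, with 5 over 0.1. With a replicate block, 18, 109 and 122 gene models and 0 members were called. In ID group 3, 127 members were beyond all compared libraries, with 131 without K326 replicate 2 and 134 without myc2a replicate 5. In ID group 7 there were 129, and 131 without K326 replicate 2. Leaving out a compared library can only keep or raise such a count, so nothing is read from these values. The lone libraries behind both shifts limit every value on them.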
